A study of Mus musculus with 3 samples.

Results

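The genes described here encode the factors that start, extend and end protein synthesis on cytosolic ribosomes in mouse macrophages. They were chosen by symbol: the protein-coding genes named Eif or Eef followed by a digit, together with Etf1, Gspt1, Pabpc1 and Pabpc4, without the eIF2 alpha kinases (Eif2ak) and without the copy on the Y chromosome. The rule gave 67 of 22028 annotated protein-coding genes, and 64 of them were detected, that is, they reached 1 TPM (a level corrected for transcript length and scaled to the same sum in each library) in all 3 libraries. The symbols also take in genes that are not factors of initiation or elongation themselves: the eIF4E-binding repressors, 1 kinase, 5 methyltransferases that modify elongation factors, and the release factors.

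Total RNA of the cytosolic fraction, depleted of ribosomal RNA, was sequenced from macrophages of the mouse strain C57BL/6J, derived in culture from bone marrow. Every library came from cells given 100 ng/ml Lipid A, which is the lipopolysaccharide portion recognised by the receptor TLR4, for 12 h, then kept without it for 12 h, and then given 100 ng/ml Lipid A for 90 min. The 3 libraries are labelled as biological replicates 1 to 3 of 1 group, all carry the same donor record, and neither age nor sex was collected, so the spread below is that between these samples only. Cells with no exposure or with a single exposure were not analysed here, and the values are levels in twice-exposed cells, not responses to Lipid A.

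Translation of most mRNAs starts when the cap-binding complex eIF4F (eIF4E, the scaffold eIF4G and the helicase eIF4A) brings the small ribosomal subunit, loaded with eIF1, eIF1A, eIF3, eIF5 and the initiator tRNA carrier eIF2, to the 5' end of the mRNA. The complex scans to the start codon, eIF2 leaves in its GDP form and is recharged with GTP by its exchange factor eIF2B, and elongation proceeds by eEF1A, which delivers aminoacyl-tRNA, and eEF2, which moves the ribosome along. In macrophages, phosphorylation of eIF2 alpha and of the eIF4E-binding proteins are known points at which signalling acts on protein synthesis. RNA levels, as measured here, do not show phosphorylation or factor activity.

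The gene table held 40637857 expected counts on annotated genes in replicate 1, 70407572 in replicate 2 and 49678390 in replicate 3. Protein-coding genes took 28.0 to 33.2% of TPM and 7SK RNA alone stood at 21186 to 76327 TPM, so the spread of genes between libraries is compared below on TPM rescaled over nuclear protein-coding genes, and levels are given in TPM as deposited. The cell type named in the labels was checked with 8 macrophage markers, all detected (Lyz2 at 2982, 3752 and 3052 TPM), and with 14 markers of other blood, stromal and endothelial cells. None of these 14 was detected, their summed level was 0.640 to 1.29 TPM, and Ly6g, Cd3g and Hbb-bs had 0 counts in every library.

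The 64 detected translation factor genes spanned 789-fold in mean level, from Eif5a2 (1.18 ± 0.0693 TPM, SD, n = 3) to Eef1a1 (931 ± 134 TPM). Their median was 23.3 TPM, against 8.48 TPM for all 8826 detected nuclear protein-coding genes. At 10 TPM or more stood 42 of the 64 (65.6%), against 44.9% of all detected protein-coding genes. Together the 67 genes took 1.12 ± 0.08% of the TPM of nuclear protein-coding genes and 1.09 ± 0.06% of all counts. The sum was uneven: Eef1a1 alone took 27.6 ± 2.05% of it, and the 8 most abundant genes took 64.8 ± 1.41%. After Eef1a1 these were Eif1, Pabpc1, Eif4a1, Eef2, Eif4g2, Eif5a and Eef1b2, of which Eif1, Eif4a1, Eif4g2 and Pabpc1 serve initiation and the others elongation. This order rests on the sum of all annotated transcripts of a gene. In protein-coding transcripts alone, Eif1 (148 TPM) stood below Pabpc1 (210 TPM), and Eef1b2 (37.1 TPM) below Eef1g (55.8 TPM).

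**Figure D1:**
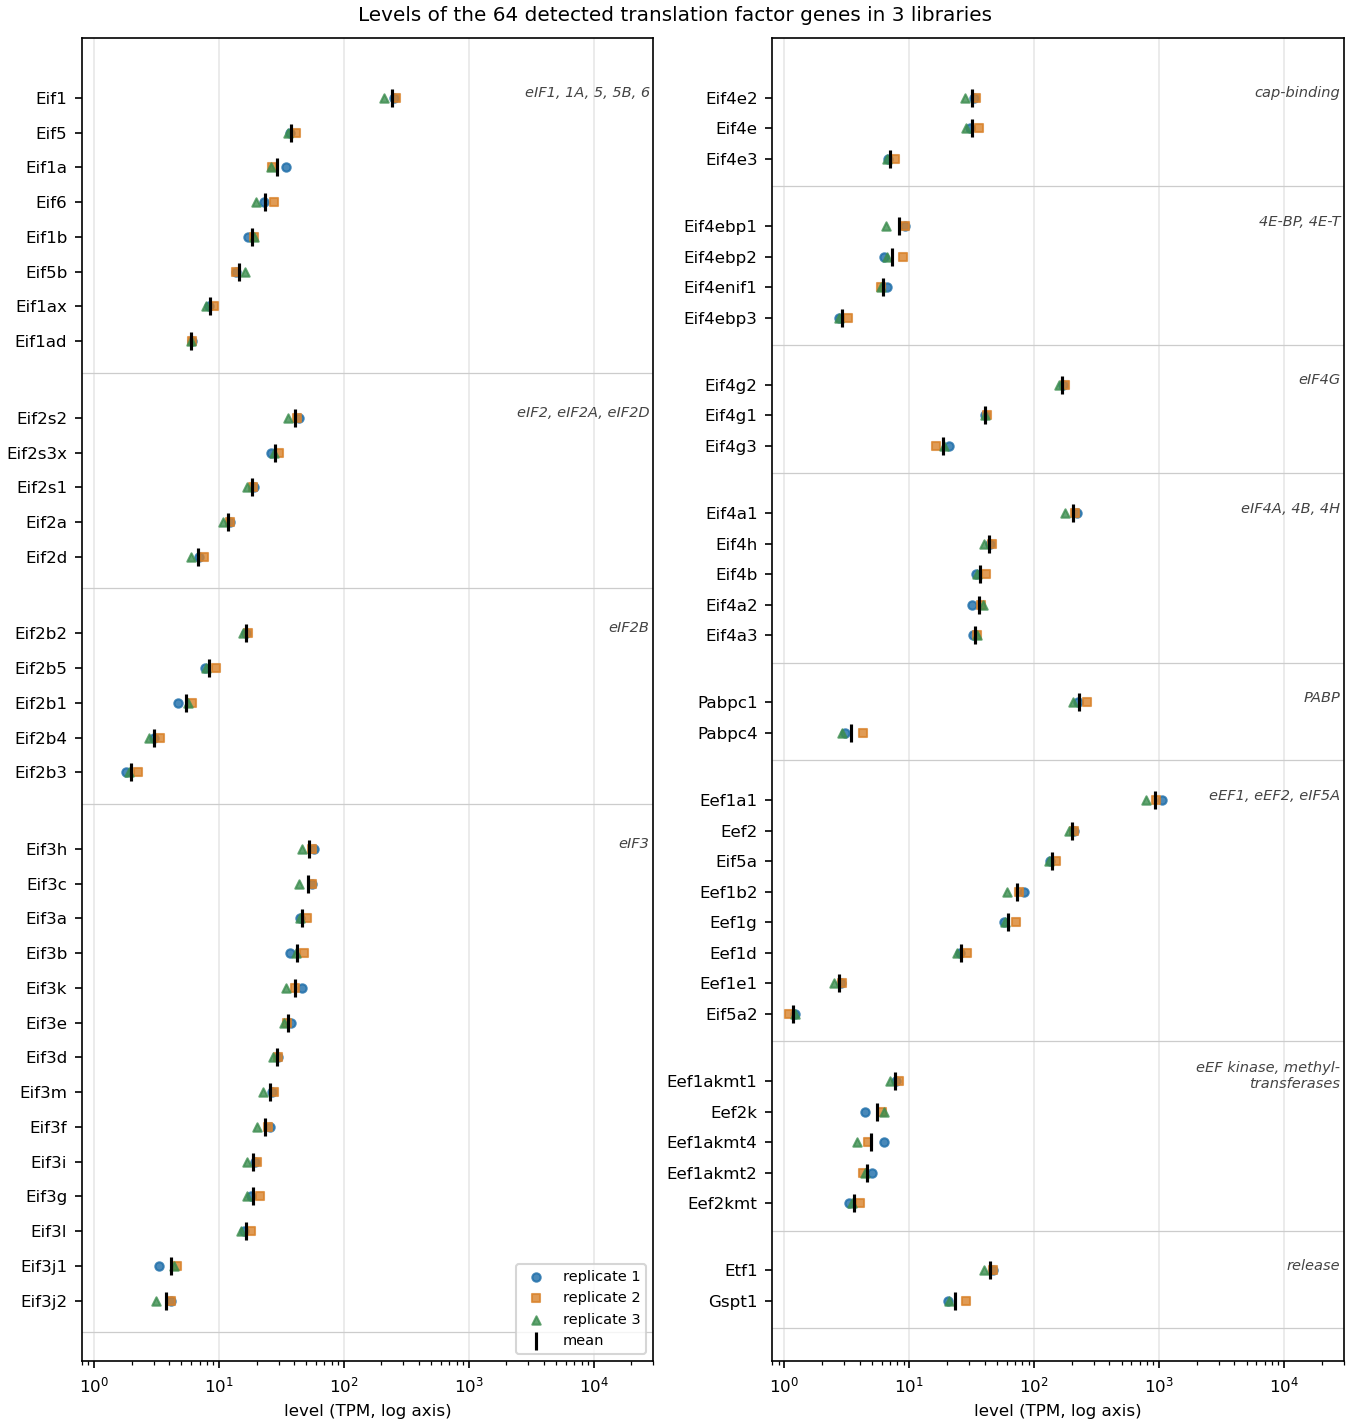
Level of each detected gene in TPM (log axis) in the 3 libraries (coloured symbols, 1 per replicate) with the mean as a black bar, grouped by role. The eIF3 genes other than Eif3j1 and Eif3j2 lie close together between 16.4 and 53.1 TPM, whereas the elongation group runs from Eif5a2 at 1.18 TPM to Eef1a1 at 931 TPM.

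In what follows, 3 values in a row are those of replicates 1, 2 and 3. Ratios between 2 genes are log2 ratios of TPM taken within each library, given as mean ± SD over the 3 libraries. No test was made on them, since an exact two-sided sign-flip test on 3 libraries cannot go below p = 0.25.

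Among the factors of start codon selection, Eif1, which keeps the scanning ribosome from accepting wrong start codons, was by far the highest, at 252, 262 and 208 TPM. Its paralog Eif1b stood at 17.1, 19.2 and 18.9 TPM, and Eif1 exceeded it 13.0-fold (3.70 ± 0.22 on the log2 scale). The eIF1A protein, which binds next to eIF1, is encoded by a pair of genes: Eif1a was at 34.6, 26.7 and 26.0 TPM and the X-linked Eif1ax at 8.37, 9.21 and 7.95 TPM. Eif1a was therefore the higher gene in each library, by 3.40-fold (1.76 ± 0.26). Eif5, which triggers GTP hydrolysis by eIF2, stood at 37.2, 41.1 and 35.7 TPM, above Eif5b, the GTPase that joins the large subunit, at 13.7, 13.7 and 16.3 TPM (1.39 ± 0.23). Eif6, which holds free large subunits apart from small ones, was at 23.5 ± 3.98 TPM. The lowest of the 8 was Eif1ad, an eIF1A-domain protein, at 6.09, 6.06 and 5.95 TPM.

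The subunits of eIF2, the GTPase that carries initiator tRNA, did not stand at 1 level. The beta subunit gene Eif2s2 was at 44.1, 42.3 and 35.6 TPM, the gamma subunit gene Eif2s3x at 26.0, 30.3 and 27.8 TPM, and the alpha subunit gene Eif2s1, whose product is phosphorylated in the integrated stress response, at 19.2, 18.9 and 16.8 TPM. Eif2s1 was lowest of the 3 in each library, 2.22-fold below Eif2s2 (-1.15 ± 0.06) and 1.53-fold below Eif2s3x (-0.61 ± 0.16). In the second transcript table these ratios were smaller, at -0.82 and -0.21. The alternative tRNA carriers Eif2a (11.8 ± 0.812 TPM) and Eif2d (6.93, 7.63 and 5.97 TPM) were lower still. Eif2a shares exon sequence with the opposite-strand gene Serp1 at 125 TPM, and whether its level includes reads of Serp1 was not tested.

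The exchange factor eIF2B, which recharges eIF2 with GTP and is the target of phosphorylated eIF2 alpha, had the second lowest median of the 12 roles among detected genes, 5.49 TPM over its 5 subunit genes. Eif2b2 (beta) was highest at 16.6, 17.0 and 15.6 TPM, and Eif2b3 (gamma) lowest at 1.80, 2.24 and 1.91 TPM. The gene of the catalytic epsilon subunit, Eif2b5, stood at 7.71, 9.45 and 7.92 TPM, and Eif2s1 exceeded it 2.20-fold (1.13 ± 0.16). Eif2b1 (5.49 ± 0.723 TPM) and Eif2b4 (3.05 ± 0.313 TPM) lay between Eif2b3 and Eif2b5. In TPM summed over all transcripts, the 3 libraries of Eif2b2 did not overlap those of any other eIF2B gene. In protein-coding transcripts alone they did overlap, with Eif2b2 at 9.59, 9.86 and 7.95 TPM and Eif2b5 at 7.70, 9.46 and 7.92 TPM. In expected counts, where length is not corrected, Eif2b2 (877, 1744 and 1041) was below Eif2b5 (1017, 2352 and 1497) in each library.

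All 14 genes of eIF3, the scaffold on the small subunit, were detected. Apart from Eif3j1 and Eif3j2, the remaining 12 lay within 3.24-fold of each other, with a median of 32.3 TPM. Eif3h was highest at 57.2, 55.7 and 46.3 TPM, and Eif3a, the largest core subunit, stood at 44.3, 50.9 and 44.8 TPM. Between Eif3h and Eif3l (16.4 ± 1.59 TPM), the lowest of the 12, lay also Eif3c (51.8 TPM), Eif3b (42.0 TPM), Eif3k (40.5 TPM), Eif3m (25.6 TPM), Eif3f (23.5 TPM), Eif3i (18.9 TPM) and Eif3g (18.8 TPM), with SDs of 9.07 to 15.1% of the mean. Eif3e (38.1, 35.2 and 33.5 TPM) and Eif3d (29.8, 29.8 and 27.2 TPM), both of which have been tied to translation of selected mRNAs, differed by 0.30 ± 0.06 on the log2 scale, with Eif3e higher in 3 of 3 libraries.

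The loosely attached j subunit is encoded by near-identical genes on different chromosomes, and both were far lower: Eif3j1 was at 3.30, 4.64 and 4.37 TPM and Eif3j2 at 4.15, 4.16 and 3.11 TPM. Eif3a exceeded Eif3j1 11.5-fold (3.52 ± 0.20, and 4.04 in the second transcript table). That ratio takes only 1 of the 2 copies, and none was computed against their sum. The split of reads between the copies is uncertain. The deposited posterior SD of the count reached 6.51% for Eif3j2 and 2.95% for Eif3j1, against at most 1.54% for every other detected member except Eif4ebp3. The second transcript table also divided them otherwise, with Eif3j2 at 3.40, 4.50 and 3.29 TPM and Eif3j1 at 1.14, 1.83 and 1.63 TPM.

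Of the cap-binding proteins, Eif4e, which recruits eIF4G to the cap, stood at 30.5, 36.0 and 28.2 TPM, and Eif4e2, a cap-binding protein known as a translational repressor, at 32.7, 34.3 and 28.1 TPM. Their log2 ratio was -0.01 ± 0.09, with Eif4e higher in 2 of 3 libraries, so in these values the pair did not differ beyond the spread. In the second transcript table Eif4e was higher in each library, with a mean ratio of 0.17. In expected counts, where length is not corrected, the ratio was 0.28. Eif4e3 was lower at 6.76, 7.62 and 6.62 TPM (2.17 ± 0.07 for Eif4e over Eif4e3). Eif4e1b, known as an oocyte form, had 0 counts in each library of the gene table, which allows up to 0.0657 TPM by counting error alone (3 counts), and the second transcript table gave it 0.0134, 0.0644 and 0.0959 TPM.

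The eIF4E-binding repressors, which compete with eIF4G for eIF4E until they are phosphorylated by mTOR, were low as a group, with a median of 6.73 TPM over 4 genes including Eif4enif1 (6.20 ± 0.410 TPM), the transporter of eIF4E. Eif4ebp1 was at 9.18, 9.29 and 6.47 TPM and Eif4ebp2 at 6.27, 8.85 and 6.69 TPM, and their ratio of 0.19 ± 0.32 kept 1 sign in only 2 of 3 libraries. Eif4e exceeded Eif4ebp1 3.83-fold (1.94 ± 0.20). Eif4ebp3 was lowest at 2.72, 3.24 and 2.73 TPM. It lies inside a read-through gene of the same strand (AC115631.1, 5.19 TPM), its posterior SD reached 14.6% of the count, and the second transcript table placed it 1.50 below the gene table on the log2 scale, where the median member lay 0.87 below.

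Eif4g2, an eIF4G relative that lacks the eIF4E-binding region and is known for cap-independent initiation, was the most abundant of the scaffolds at 169, 176 and 158 TPM. The canonical Eif4g1 was at 40.3, 41.5 and 40.0 TPM and Eif4g3 at 20.7, 16.3 and 19.1 TPM. The ratio of Eif4g1 to Eif4g2 had the smallest SD of the 25 ratios, -2.04 ± 0.05, and Eif4g2 was 4.12-fold higher. Eif4g1 exceeded Eif4g3 2.18-fold (1.12 ± 0.20).

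The helicase gene Eif4a1, which unwinds the 5' leader for scanning, stood at 219, 213 and 177 TPM. Its paralog Eif4a2 was at 31.9, 37.5 and 38.6 TPM, and Eif4a3, a core protein of the exon junction complex rather than of initiation, at 32.1, 34.5 and 35.0 TPM. Eif4a1 exceeded them 5.63-fold (2.49 ± 0.29) and 5.96-fold (2.58 ± 0.22). Replicate 3 had the lowest Eif4a1 and the highest Eif4a2 and Eif4a3, and therefore the smallest ratios. Within eIF4F, Eif4a1 was 6.43-fold above Eif4e (2.68 ± 0.15). The helicase cofactors Eif4b (34.3, 40.9 and 35.0 TPM) and Eif4h (44.5, 46.0 and 39.7 TPM) were close to each other, with Eif4h higher in 3 of 3 libraries (-0.24 ± 0.11 for Eif4b over Eif4h).

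The poly(A)-binding proteins, which join the mRNA's tail to eIF4G, stood far apart. Pabpc1 was at 222, 262 and 204 TPM and Pabpc4, an inducible relative, at 3.08, 4.28 and 2.89 TPM, a 67.8-fold ratio (6.08 ± 0.13).

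Elongation genes made up 42.7% of the summed level of all members. Eef1a1 was at 1056, 947 and 790.2 TPM, lowest in replicate 3 in TPM and on the scale of protein-coding genes. Its paralog Eef1a2, known from muscle and neurons, had 1, 0 and 0 counts, at which no ratio is given. Eef2, the translocase, stood at 208, 208 and 191 TPM, and Eef1a1 exceeded it 4.57-fold (2.19 ± 0.15). The exchange complex that recharges eEF1A was represented by Eef1b2 at 83.1, 76.1 and 60.2 TPM, Eef1g at 57.0, 71.2 and 57.9 TPM and Eef1d at 25.4, 28.9 and 24.2 TPM. Eef1b2 was above Eef1d by 1.47 ± 0.21. It was above Eef1g by only 0.23 ± 0.27, a mean smaller than its SD. Eif5a, which relieves ribosomes stalled at proline runs and carries the modified amino acid hypusine, was at 133, 149.6 and 132 TPM. Eif5a2, its paralog, was the lowest detected member at 1.22, 1.10 and 1.22 TPM (366, 626 and 518 counts), which gave the widest ratio of the 25, 117-fold (6.87 ± 0.19, or 6.00 with 1 TPM added to both). Eef1e1, a protein of the multi-synthetase complex, was at 2.75 ± 0.212 TPM.

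The enzymes that act on elongation factors were low, with a median of 4.92 TPM for 5 detected of 6. Eef2k, the kinase that inhibits eEF2, stood at 4.42, 6.01 and 6.27 TPM, lowest in replicate 1, and Eef2 exceeded it 36.7-fold (5.20 ± 0.32). The methyltransferases of eEF1A lysines were led by Eef1akmt1 at 7.88, 8.22 and 7.04 TPM, with Eef1akmt4 (4.92 ± 1.27 TPM) and Eef1akmt2 (4.58 ± 0.397 TPM) below it. Eef2kmt, the eEF2 methyltransferase, was lowest at 3.32, 4.03 and 3.47 TPM. Eef1akmt3 had 0 counts in each library, which allows at most 0.0194 TPM (3 counts). For release, Etf1 (eRF1, which reads stop codons) was at 46.9, 46.7 and 39.3 TPM and its GTPase partner Gspt1 (eRF3a) at 20.4, 28.5 and 20.7 TPM, so that Etf1 was higher in 3 of 3 libraries (0.95 ± 0.25). Gspt1 was set apart by replicate 2.

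**Figure D2:**
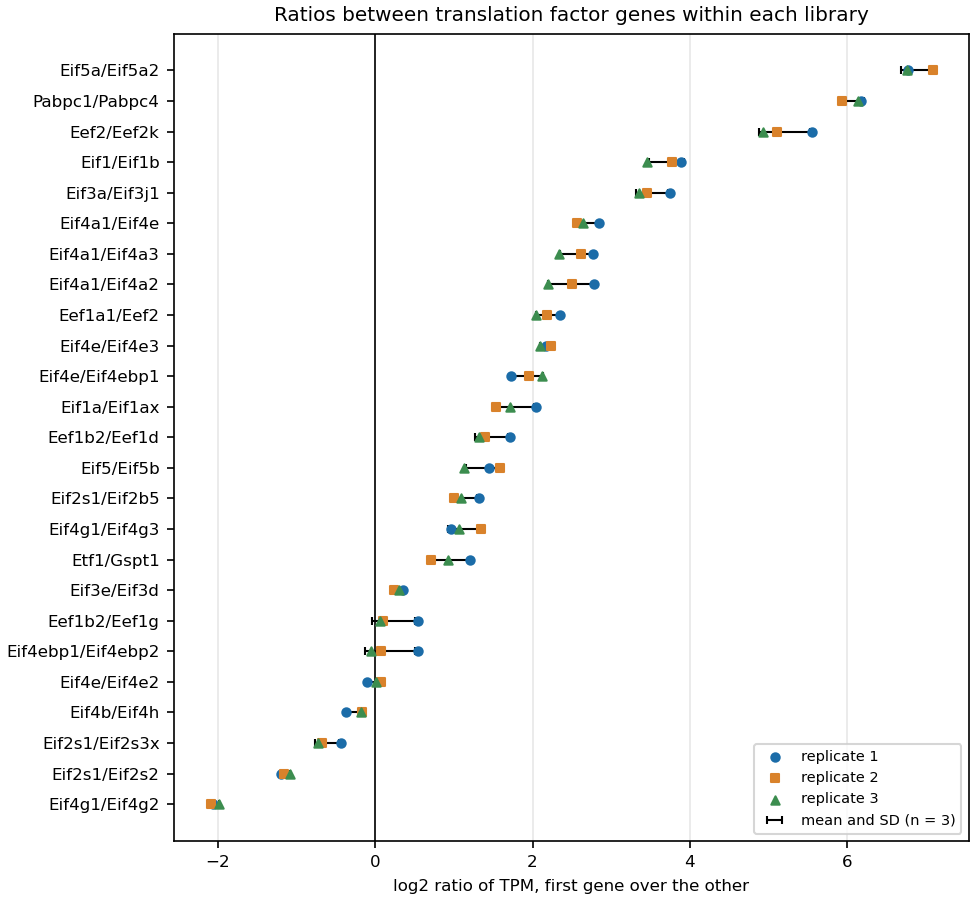
Log2 ratio of TPM between 2 genes in each of the 3 libraries (symbols) with the mean and SD (n = 3), ordered by the mean, for 25 pairs. The ratios run from -2.04 for Eif4g1 over Eif4g2 to 6.87 for Eif5a over Eif5a2, and the libraries fall on both sides of 0 for Eif4e over Eif4e2 and Eif4ebp1 over Eif4ebp2.

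Gene levels add up all annotated transcripts, and for some members much of the sum came from transcripts that are not annotated as protein-coding. The 64 detected members have 417 annotated transcripts, 202 of them not protein-coding (retained introns, processed transcripts, and transcripts marked for nonsense-mediated decay, the pathway that degrades mRNAs with a premature stop codon). For 35 members a single transcript took 90% or more of the gene's TPM, and for 61 the leading transcript was protein-coding. The exceptions were Eif4a2, Eef1b2 and Eif4a3, by mean share in the first transcript table. For Eif4a3 the protein-coding Eif4a3-201 was ahead in replicates 1 and 2 (50.7 against 49.3%, and 52.9 against 47.0%). It also led in the second table (63.5 against 36.1%). The 2 tables had the same leading transcript in 58 members. In the second table a transcript not protein-coding led in Eif5b, Eif1ax and Eif4ebp1. In the first table the median member had 1.18% from transcripts not protein-coding. Over the members' summed TPM the share was 7.64 ± 0.75%, against 6.91 ± 0.43% over all detected protein-coding genes, and it was the higher in each of the 3 libraries. The means differed by less than the SD of the members' share. The classes differed more than the total. Retained introns took 1.21 ± 0.11% in the members against 3.06 ± 0.26% in all these genes. Processed transcripts took 4.35 ± 0.67% against 2.16 ± 0.14%, and transcripts marked for nonsense-mediated decay 2.07 ± 0.11% against 1.68 ± 0.07%. These class shares lean on few transcripts. The processed transcript Eif1-202 alone held 95.3, 99.2 and 79.9 TPM of the members' sum of 3529, 3556 and 3017 TPM. Among those marked for decay, Eef1b2-205 held 34.6, 37.4 and 27.4 TPM and Eif4a2-210 14.3, 19.6 and 18.4 TPM. Shares without these transcripts were not computed. Over 10% came from transcripts not protein-coding in 15 members. These counts of members were not computed for all detected protein-coding genes, so they describe the members and do not set them apart.

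**Figure D3:**
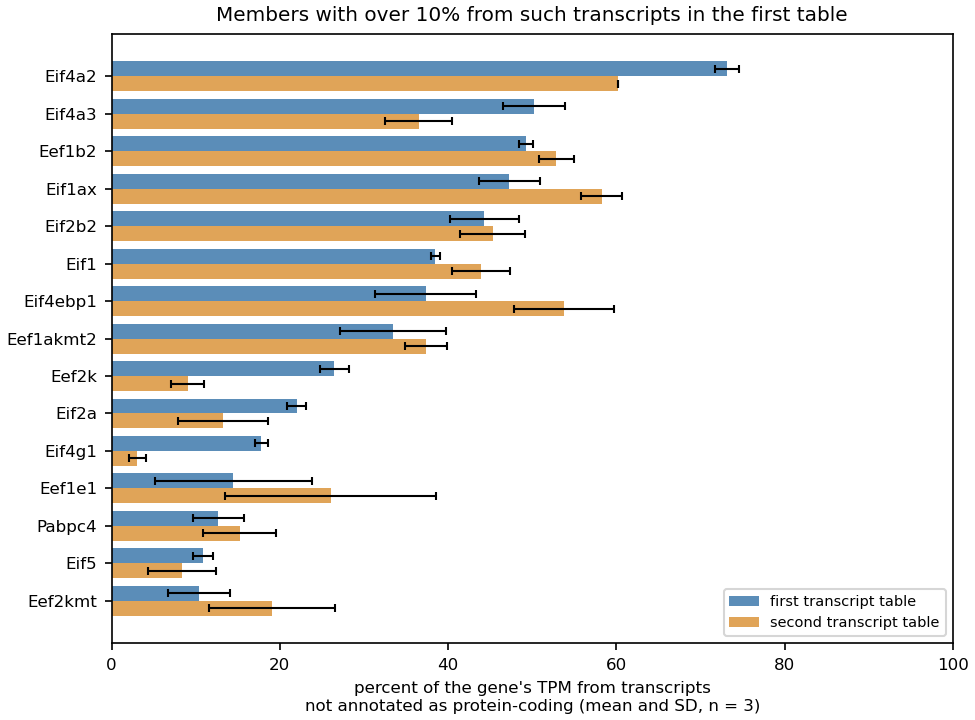
Percent of a gene's TPM assigned to transcripts not annotated as protein-coding, as mean and SD over 3 libraries, in the first and the second transcript table, for the 15 members over 10% in the first table. Eif4a2 is highest in both tables (73.1 and 60.2%), and Eef2k and Eif4g1 are far lower in the second.

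Eif4a2 (ENSMUSG00000022884.15, mm10 chr16:23107444-23114136, plus strand) had the largest such share, 73.1 ± 1.45% in the first transcript table and 60.2% in the second. Its leading transcript, Eif4a2-210, is annotated as a target of nonsense-mediated decay and took 44.9, 52.4 and 47.7% of the gene's TPM in replicates 1, 2 and 3. It lacks an exon of 140 nt, which is not a multiple of 3. Transcripts that skip this exon took 52.5 ± 2.03% of the gene's TPM, and those that hold it 44.4 ± 2.18% (40.2 and 55.3% in the second table). The skipped exon (chr16:23109120-23109259, plus strand) and the last 60 bases of the Eif4a2-210 reading frame (chr16:23110008-23110067), with the premature stop codon in capitals, are shown from the GENCODE M21 transcripts because Eif4a2-210 was the leading transcript in both tables.
Eif4a2 skipped exon: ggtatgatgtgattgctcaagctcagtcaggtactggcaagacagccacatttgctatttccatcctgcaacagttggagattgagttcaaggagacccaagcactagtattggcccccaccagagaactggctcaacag
Eif4a2-210 end of reading frame: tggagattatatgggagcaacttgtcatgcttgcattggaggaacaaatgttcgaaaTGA

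A further Eif4a2 exon of 107 nt (chr16:23112351-23112457) opens with an in-frame stop codon after 7 bases, shown in capitals with those bases (chr16:23112351-23112360).
Eif4a2 stop-containing exon, first bases: gagtcgaTAG
Transcripts with this exon took 28.0 ± 1.04% of the gene's TPM (23.3 ± 3.62% in the second table). They are Eif4a2-204, marked for nonsense-mediated decay, and Eif4a2-224, which is annotated as protein-coding, so the share that lacks the full reading frame is not the same as the share not annotated as protein-coding. Eif4a2-201 and Eif4a2-203, protein-coding transcripts that hold the 140-nt exon and lack the 107-nt exon, took 1.53 ± 1.22% and 0.920 ± 1.59% in the first table but 5.22 ± 4.98% and 11.0 ± 2.95% in the second. Restricted to transcripts annotated as protein-coding, Eif4a2 stood at 9.01, 10.1 and 9.78 TPM, and the ratio of Eif4a1 to Eif4a2 rose from 2.49 to 4.36 on the log2 scale. The restriction to coding transcripts was chosen after seeing the data.

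In some other members a single short transcript took much of the gene's TPM. TPM is corrected for length and the recorded library inserts were 250 to 400 nt, so few reads can give a short transcript a large share. The shares below are of TPM and not of reads. In expected counts, where length is not corrected, the log2 ratio of Eif4a1 to Eif4a3 was 3.60, against 2.58 in TPM. For Eif4a3 it was Eif4a3-203, a processed transcript of 466 nt with 50.1 ± 3.63% (36.1% in the second table). For Eif1 it was Eif1-202, a processed transcript of 383 nt with 38.0 ± 0.39%, and for Eif1ax the retained-intron transcript Eif1ax-202 of 416 nt with 47.3 ± 3.60%. Eef1b2-205, of 691 nt and marked for nonsense-mediated decay, led its gene with 45.4 ± 3.74%. Eif2b2 had 44.3% and Eif4ebp1 37.4% from transcripts not protein-coding. In Eef1akmt2 the share was divided, with 14.8 ± 1.91% on a transcript of 627 nt marked for nonsense-mediated decay and 12.3 ± 3.23% on a retained-intron transcript of 811 nt, and in Eif4g1 the leading one was a long retained-intron transcript, Eif4g1-210 of 5004 nt (10.3 ± 2.23%, and 0.217% in the second table). Pabpc1 differed between libraries, with 1.11, 15.1 and 5.91% on the processed transcript Pabpc1-207 (3.41, 16.8 and 2.07% in the second table), highest in replicate 2 in both tables. Counting protein-coding transcripts alone, Eef1b2 fell from 73.2 to 37.1 TPM and below Eef1g, with a ratio of -0.60 in place of 0.23. In the same count Eif1 stood at 148 TPM, and the ratios of Eif1 to Eif1b and of Eef1b2 to Eef1d came to 3.00 and 0.50. Those of Eif1a to Eif1ax, Eif4e to Eif4ebp1 and Eif4a1 to Eif4a3 came to 2.69, 2.62 and 3.56. Eif4ebp1 to Eif4ebp2 came to -0.49.

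The tables disagreed most on Eif5b, with 3.63% from transcripts not protein-coding in the first and 51.3% in the second, of which 49.0 ± 6.13% was on the retained-intron transcript Eif5b-202. They differed by over 10 percentage points in 10 of 64 members, and 12 of the 15 members over 10% in the first table were also over 10% in the second. Shares of this kind rest on how each program divided reads among overlapping transcripts.

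Eif4h (ENSMUSG00000040731.13, chr5:134619721-134639490, minus strand) showed a split between 2 protein-coding isoforms on which the tables were close. Eif4h-205 holds an exon of 60 nt (chr5:134624441-134624500) that Eif4h-201 skips. The skipping form took 61.9, 57.2 and 59.2% of the gene's TPM and the form with the exon 35.4, 41.5 and 38.6%, and the means in the second table were 58.4 and 38.0%. The exon, a multiple of 3 in length, is shown in the sense of the mRNA because it tells the 2 coding forms apart.
Eif4h alternative exon: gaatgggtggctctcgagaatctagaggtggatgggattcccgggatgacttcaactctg

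Many mRNAs of the translation apparatus begin with a 5' terminal oligopyrimidine motif, a C followed by a run of C and T at the transcription start, through which mTOR controls their translation. RefSeq start sites (GRCm38.p6) were searched in the sense of the mRNA. The search was for a C followed by 5 or more bases that are each C or T, starting within 5 bases of the start. Of the 48 detected members with a RefSeq window, 7 held such a run (14.6%), against 10.2% of all 32851 windows and 10.5% of detected protein-coding genes. They were Eef1a1, Eif4g1, Eif2s3x, Eif3f, Eif3l, Eif2b2 and Eif2b5. Their median was 23.5 TPM (range 8.36 to 931 TPM), against 18.8 TPM for the 41 without. Over detected protein-coding genes the medians were 9.5 TPM with a run and 8.5 TPM without. Whether level differs with the run was not tested. Members with no RefSeq window, among them Pabpc1, Eif4g2, Eef1g and Eef1d, were not searched. Windows of 30 bases centred on the start are shown for Eef1a1 (chr9:78481710-78481739, minus strand) and Eif3f (chr7:108934400-108934429, plus strand) with the run in capitals, and for Eef2 (chr10:81176616-81176645, plus strand), the next elongation gene in level, in which no such run was found.
Eef1a1: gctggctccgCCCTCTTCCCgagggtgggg
Eif3f: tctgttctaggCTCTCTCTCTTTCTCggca
Eef2: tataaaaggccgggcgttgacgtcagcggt
A match describes letters at an annotated start, and the start used in these cells was not measured. Neither a run in a window nor its absence therefore shows whether the mRNA begins with the motif.

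The spread of the members between the 3 libraries was close to that of all genes. On TPM rescaled over nuclear protein-coding genes, the median coefficient of variation (CV, the SD as a percent of the mean) was 11.1% for the 64 detected members and 10.7% for all 8826 detected protein-coding genes. It was under 10% in 29 members (45.3%, against 45.4% of all) and over 20% in 5 (7.81%, against 14.0% of all). These 5 were Eef2k (25.5%), Pabpc4 (24.1%), Eif3j1 (24.0%), Gspt1 (23.0%) and Eif4ebp2 (22.8%), and the steadiest were Eif3e (2.23%) and Eif4enif1 (3.15%).

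Replicate 2 stood slightly higher for the members than for other genes. On that scale 49 of the 64 had their highest value in replicate 2 (76.6%, against 44.7% of all 8826 detected protein-coding genes), and 53 lay above the median shift of all detected protein-coding genes in that library. The median shift of the members relative to all those genes was 0.08 on the log2 scale in replicate 2, -0.04 in replicate 1 and -0.03 in replicate 3. Replicate 2 was also the deepest library, and the part of depth in this shift was not tested. In bulk RNA, fewer cells of a type and less RNA per cell cannot be told apart.

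Variability was tested for each gene with edgeR, by comparing the deviance of its counts between the libraries with that given by the dispersion trend of all genes. At a Benjamini-Hochberg adjusted p of 0.05, 0 of the 64 members tested were called variable, where 240 of 12256 genes were called (1.96%). With an unadjusted p of 0.05 the counts were 0 members and 843 genes (6.88%), and with the DESeq2 size factors and dispersion trend they were 0 members and 224 genes at the adjusted threshold. The smallest p among the members in edgeR was 0.0969 for Pabpc4 (adjusted p = 0.993), followed by Eif3j1 and Eef2k. Failing the test does not show that levels were equal.

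**Figure D4:**
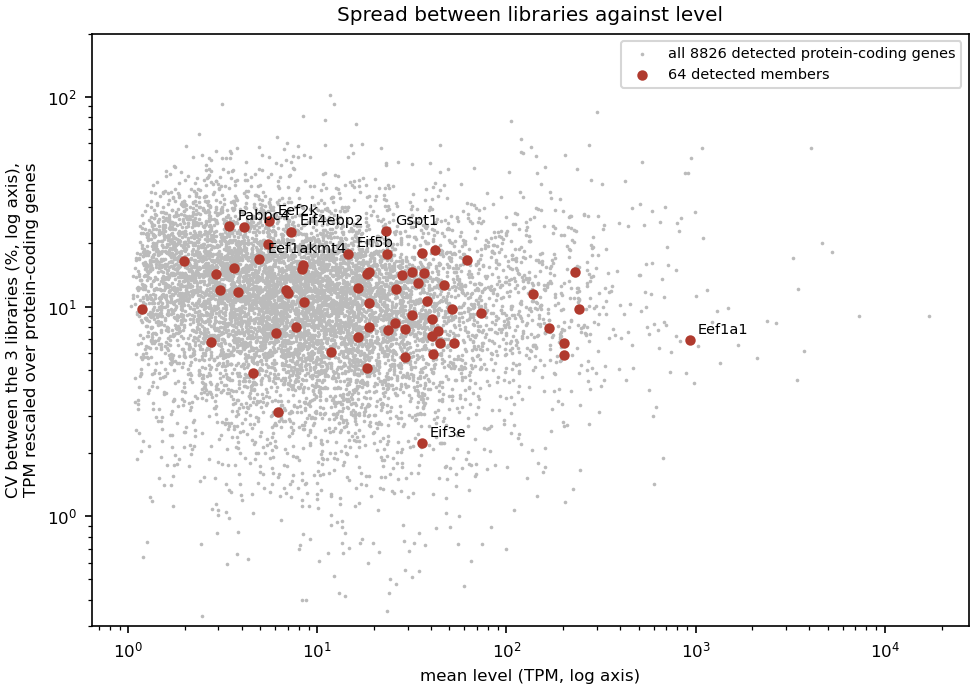
CV between the 3 libraries (percent, log axis), on TPM rescaled over protein-coding genes, against the mean level in TPM (log axis) for the 64 detected members (red) and all 8826 detected protein-coding genes (grey). The members lie within the grey cloud, with Eif3e lowest at 2.23% and Eef2k highest at 25.5%.

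Genes that act on these factors were taken from 4 lists. Of the 17 kinases and regulators upstream, Gcn1 is not annotated under this symbol and all other 16 were detected, with a median of 14.7 TPM. The eIF2 alpha kinases were led by Eif2ak2 (PKR), the kinase activated by double-stranded RNA, at 39.0, 35.2 and 35.0 TPM, and Eif2ak1 stood at 8.29 ± 0.34 TPM. Eif2ak4 (GCN2) and Eif2ak3 (PERK) were lower, at 2.11 ± 0.02 and 1.23 ± 0.13 TPM. Ppp1r15a (GADD34), the inducible phosphatase subunit that reverses eIF2 alpha phosphorylation, was at 253, 146 and 80.2 TPM. It was the only gene of the 4 lists called variable by edgeR (adjusted p = 0.00481). That is 1 of 16 tested in its list, with 0 of 16, 0 of 9 and 0 of 9 called in the other lists. Of all genes tested, 1.96% were called, so a single call over the lists does not set them apart. The call was lost without replicate 1 (adjusted p = 0.374) and without replicate 3 (0.708), and held without replicate 2 (0.0159). Its libraries did not overlap those of Eif2s1, the gene of the subunit it acts on, which lay between 16.8 and 19.2 TPM.

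Of 16 partners of initiation and elongation, 15 were detected, with a median of 11.7 TPM, among them the helicase Ddx3x (36.7 ± 2.67 TPM). Pdcd4, the inhibitor of eIF4A, stood at only 1.38, 2.13 and 1.85 TPM, and Gspt2, the paralog of Gspt1, was not detected (0.17 ± 0.04 TPM). Of 9 enzymes that modify eIF5A and eEF2, 8 were detected, with a median of 3.41 TPM. Dhps and Dohh, which make the hypusine of eIF5A, were at 11.3 ± 0.91 and 6.84 ± 0.59 TPM, while Dph2, of the diphthamide pathway of eEF2, was under 1 TPM in each library. Of 9 mitochondrial translation factors 8 were detected, with a median of 3.89 TPM. The mitochondrial elongation factor Tufm was the highest of them at 11.6 ± 1.29 TPM, far below its cytosolic counterpart Eef1a1.

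The levels of the members kept their order of magnitude between the 2 quantifications. The second transcript table, made directly from the reads, gave lower TPM in all 3 libraries for 63 of the 64 members (all but Eif3j2), with a median log2 offset of -0.87 ± 0.10 for the members and -0.85 ± 0.10 for all detected protein-coding genes. Of the 64 members, 59 lay within 0.3 of that offset. The largest departures were those of Eif3j2 (0.84 above the offset), Eif4ebp3 (0.62 below it), Eif3j1 (0.56 below it) and Eif2s1 (0.36 above it). Exons of 27 members overlap exons of another annotated gene, 17 of them on the opposite strand, 9 members host 19 snoRNA genes, and the labels and notes used here do not say whether the counting used strand.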

How the data were processed

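Each of the 3 libraries had a gene table and 2 transcript tables, deposited by the authors on mm10 with GENCODE M21. Per the notes deposited beside the tables, genes and the first set of transcripts were quantified from alignments to the transcriptome, and the other set from the FASTQ files without them. The quantification programs and any use of strand are not given in the sources. Expected counts per gene and estimated counts per transcript were deposited by the authors per library without pooling or scaling. The TPM were computed by the authors and scaled to the same sum in each library, per the file headers. The percent of a gene's TPM taken by each transcript, and the posterior SD of each count, were also deposited by the authors. Features that are no annotated genes (0.0959 to 0.227% of counts) entered no library size or test, and TPM were used unchanged.

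Members and lists were chosen with earlier results of these data known. Every member is accounted for. Values per library are given for the highest and lowest detected member of each role, members not detected, members of 26 pairs, and some of the extremes of transcript use and of the difference between tables. The gene-level extremes named in the variability and transcript paragraphs beyond these were chosen after their values were seen. For variability, expected counts were rounded, filtered by filterByExpr, scaled by TMM and fitted with an intercept only in edgeR 4.0.16 under R 4.3.3. The residual deviance under the trended dispersion was compared with chi-square and adjusted by Benjamini-Hochberg, and the script was checked on simulated counts. DESeq2 1.42.0 gave an alternative. Alternatives covered the detection threshold, pseudocount, table, scale, filter, dispersion and each library left out. RefSeq windows matched 49 of 67 members by symbol. With 1 group, no groups were compared.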

Additional observations from a re-analysis of the deposited data

Results flagged for a closer look

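The processed pseudogene Eif4a-ps4 (mm10 chr1:60703932-60705149), which is not protein-coding and so outside the genes described above, had a signal above the 3 counts taken as the limit of detection in each library. Its mean level was 5.27 ± 2.08 TPM, with 2.88, 6.65 and 6.28 TPM in replicates 1, 2 and 3 (176, 785 and 547 expected counts). The second transcript table gave it 0.00179, 5.12 and 1.74 TPM, so the tables agreed on replicate 2 far more closely than on replicate 1. Of the other 11 genes outside the rule with names of this kind, none had over 3 counts in each library.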

How the results depend on the processing

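All alternatives below were listed at the outset except the restriction to protein-coding transcripts. Without each library in turn, 82 to 119 genes of all were called variable, against 240 with the 3 libraries, and 0 members in each case; with 2 libraries there is 1 residual degree of freedom per gene. The median log2(TPM + 1) of detected members was 4.55 ± 0.18. It was 3.76 in the second transcript table and 6.23 on TPM over nuclear protein-coding genes, both of which change the scale of every gene. Of 175 recomputed ratios for 25 pairs, 134 moved by less than 1 SD, 37 moved by more with the same sign or with no common sign to begin with, and 4 turned. All 75 that left out a library were among the 134. In expected counts, where length is not corrected, Eif3e over Eif3d turned to -0.090, Eif4b over Eif4h to 0.44 and Eef1b2 over Eef1g to -1.15. With protein-coding transcripts only, Eef1b2 over Eef1g turned to -0.60. No paired analysis was possible because the libraries form a single group.

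The limits are those of 3 libraries with 1 donor record and no control group, of transcript shares that depend on the program, and of genes that share sequence or exons with others. Depth limits the statement on Eef1a2, Eef1akmt3 and Eif4e1b to the gene-table counts given.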
